A study of Mus musculus with 35 samples.

Results

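The 54 genes described here encode structural parts of the motile cilium or proteins closely tied to it, and they were followed in RNA from whole mouse lung after the airway toxicant naphthalene. They were taken by gene symbol from a list chosen with earlier results of these data known. All 54 were found, each on 1 line, among the 57186 genes of the count table. A filter on low counts left 20606 genes to test, with all 54 members among them. The control mice (C) had the genotype RORaf/f, a floxed Rora gene. The KO mice, RORaf/fIl7riCre, also carried a Cre recombinase at the Il7r locus, which acts in cells that express Il7r or descend from such cells. The labels name no Cre in the control genotype, so loss of RORa and presence of the Cre cannot be told apart. Mice of 14 days of age, as the series gives it for all, were either untreated or taken 2, 5 or 7 days after naphthalene, and untreated mice carry the same day labels. Each of the 12 groups of treatment, day and genotype had 3 libraries, except treated KO at day 7 with 2. The labels do not say outright that each library is 1 mouse, so the p-values measure the spread between libraries.

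Motile cilia project from the multiciliated cells of the airway and beat to move mucus. Each holds a ring of doublet microtubules around a central pair. Dynein motors sit on the doublets as outer and inner arms, radial spokes and the nexin-dynein regulatory complex control them, and tektins and other proteins line the inside of the doublets. Multiciliated cells arise from club and basal cells. The regulators Gmnc and Mcidas start this programme and the transcription factor Foxj1, with RFX factors, drives the genes of the cilium itself. Naphthalene is toxic to club cells, which activate it through Cyp2f2.

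Library totals ran from 10.7 M to 21.1 M reads, so 1 read equalled 0.0487 to 0.0886 CPM (counts per 1 M counts of the library). The lowest count of any member in any library was 12 reads, for Armc3 and Spag17. Rora itself had 32.1 to 53.3 CPM in the 18 control libraries and 25.2 to 63.9 CPM in the 17 KO libraries, and the ranges overlapped. By design the deletion is limited to cells with a history of Il7r expression, so Rora in whole lung is a weak check of the labels. Scgb1a1, the main secretory product of club cells, fell at day 2 from 6849 ± 718 CPM in untreated control libraries (SD, n = 3) to 563 ± 182 (SD, n = 3), with a log2 change over both genotypes of -3.77 (SE 0.18, edgeR adjusted p = 6.03e-14). Ciliated cell markers outside the member list summed to 222 to 511 CPM in untreated libraries and to 646 to 865 CPM in treated libraries of day 2. At day 5 the treated sums were 572 to 640 CPM in control and 350 to 1100 CPM in KO libraries. At day 7 they were 377 to 444 and 367 to 478 CPM. These lay within the untreated range over all days, but above all untreated libraries of day 7. Those had 317 to 365 CPM in control and 275 to 358 CPM in KO mice. The highest means on this list were those of Sec14l3 (352 CPM) and Foxj1 (66 CPM), so the sums mostly follow Sec14l3. Markers of male germ cells, which also build a motile axoneme, summed to at most 1.92 CPM in any library, and Tnp1 was at 0 in all of them. Replicate 1 of the untreated control libraries of day 5 had 159 CPM of P2ry12, a gene of the brain marker list. Its mean over the 35 libraries was 6.65 CPM. Of other genes of that list, Snap25, Gfap and Ttr reached at most 0.937 CPM in any library, and Mbp at most 53.7 CPM (mean 34.6). The source of the P2ry12 reads was not tested. At days 2 and 5 the treated and untreated libraries carry different letters in their names, so a batch that these letters may mark and the treatment cannot be told apart there, while all libraries of day 7 share 1 letter. The untreated libraries of day 2 themselves carry 2 letters, k in 4 libraries and n in the other two (replicate 3 of control and replicate 1 of KO). Those of day 5 carry f in 4 and o in the other two, and 1 treated library of day 5 carries i where the other five carry b. What the letters stand for is not given in the sources used here.

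Promoter windows, each from 250 bases before to 50 after a gene's start, were found for 47 of the 54 members in RefSeq's table for GRCm38.p6, an older build than the GRCm39 named for the counts. No window was found for Dnah3, Rsph1, Rsph4a, Cfap54, Cfap65, Cfap53 and Tppp3. RFX factors bind the X-box, an inverted repeat of which GTTGCC is 1 arm, searched on both strands. That arm was present in 22 of the 47 members (46.8%), against 14.1% of all 27025 genes with a window. The whole repeat, GTTNCC followed after 2 bases by GGNAAC, was found in Cimap3 only (2.13% of members and 0.529% of all genes), and its form with 1 base between the arms in Fam183b only (2.13% against 0.311%). The forkhead motif GTAAACA was in 3 members, Ak7, Cfap43 and Sntn (6.38%, against 4.05% of all genes). A single arm can be part of a whole repeat. The 6 windows that follow show both members with a whole repeat (Cimap3 and Fam183b), 2 members of other classes that rose at day 2 and have 1 arm (Dynlrb2 and Dnai2), the member that fell at day 2 and has 2 arms (Lrrc23), and the member with the largest rise, whose window held none of these motifs (Cfap52). Cimap3 has a second window without a match, not shown. Capitals mark the matches, and each sequence reads 5′ to 3′ along the gene's strand.
Cimap3, chr3:106001448-106001747, minus strand: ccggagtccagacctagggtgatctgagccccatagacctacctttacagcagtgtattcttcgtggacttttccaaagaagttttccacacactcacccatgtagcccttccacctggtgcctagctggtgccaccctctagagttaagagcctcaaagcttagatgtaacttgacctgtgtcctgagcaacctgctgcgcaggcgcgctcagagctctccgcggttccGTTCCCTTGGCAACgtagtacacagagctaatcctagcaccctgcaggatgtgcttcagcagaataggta
Fam183b, chr11:58801911-58802210, minus strand: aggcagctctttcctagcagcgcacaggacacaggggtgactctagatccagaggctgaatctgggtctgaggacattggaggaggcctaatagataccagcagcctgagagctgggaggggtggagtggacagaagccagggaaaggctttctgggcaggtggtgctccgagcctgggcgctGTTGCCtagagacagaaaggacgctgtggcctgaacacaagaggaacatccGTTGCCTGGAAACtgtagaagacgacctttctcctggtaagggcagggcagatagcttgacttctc
Dynlrb2, chr8:116504765-116505064, plus strand: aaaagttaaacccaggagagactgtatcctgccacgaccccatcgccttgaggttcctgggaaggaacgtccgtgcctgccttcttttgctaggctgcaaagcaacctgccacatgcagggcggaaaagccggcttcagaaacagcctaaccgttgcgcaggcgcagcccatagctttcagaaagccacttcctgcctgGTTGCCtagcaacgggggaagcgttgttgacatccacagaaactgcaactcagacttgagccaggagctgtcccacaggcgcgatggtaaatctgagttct
Dnai2, chr11:114727169-114727468, plus strand: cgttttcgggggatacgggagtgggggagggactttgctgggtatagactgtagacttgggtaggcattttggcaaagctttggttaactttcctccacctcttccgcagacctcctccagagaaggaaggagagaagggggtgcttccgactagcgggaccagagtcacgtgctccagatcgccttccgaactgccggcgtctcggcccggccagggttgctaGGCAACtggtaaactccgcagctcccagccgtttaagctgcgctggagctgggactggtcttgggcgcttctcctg
Lrrc23, chr6:124779678-124779977, minus strand: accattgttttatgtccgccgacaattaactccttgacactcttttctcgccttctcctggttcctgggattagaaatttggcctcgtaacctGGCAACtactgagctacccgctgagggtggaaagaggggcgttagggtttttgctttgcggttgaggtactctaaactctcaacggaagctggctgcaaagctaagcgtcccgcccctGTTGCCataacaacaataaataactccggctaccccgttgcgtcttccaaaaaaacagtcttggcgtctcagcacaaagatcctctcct
Cfap52, chr11:67965593-67965892, minus strand: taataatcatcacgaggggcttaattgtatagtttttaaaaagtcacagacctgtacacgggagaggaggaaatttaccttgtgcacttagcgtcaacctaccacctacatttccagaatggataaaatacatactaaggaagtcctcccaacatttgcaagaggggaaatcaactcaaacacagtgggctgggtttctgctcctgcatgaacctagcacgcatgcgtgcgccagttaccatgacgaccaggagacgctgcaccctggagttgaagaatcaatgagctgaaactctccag
A match describes these letters only, and the members with and without a GTTGCC arm had near medians at day 2, a difference that was not tested: 14 of the 22 with one rose and 1 fell, with a median log2 change of 0.99, and 16 of the 25 without rose, with a median of 0.95.

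At day 2 after naphthalene most structural cilium genes had higher transcript levels in both genotypes. Averaged over the genotypes, 34 of 54 members rose and 1 fell at an adjusted p under 0.05 (edgeR's quasi-likelihood test with Benjamini-Hochberg adjustment over all tested genes, used for every adjusted p given here), where 9.9% of all tested genes changed (5.6% rose and 4.3% fell). The median member change was 0.96 on the log2 scale, against -0.04 for all tested genes, and 50 members had a change above 0. In 26 members all 6 treated libraries lay above all 6 untreated ones, which 3.05% of all tested genes did, and in 0 members all lay below (1.47%). Since the members were chosen with earlier results of these data known, such counts beside all tested genes are descriptions and no independent evidence. With only the untreated libraries of letter k or only those of letter n, 45 or 21 members rose. The rise was still present at day 5, with 26 members higher and 0 lower (7.16% of all tested genes changed, 4.34% higher and 2.82% lower) and a median of 0.53. At day 7, 10 members were higher and 0 lower (0.374% of all tested genes changed, 0.335% higher and 0.0388% lower), with a median of 0.54 and 53 members above 0. All treated libraries lay above all untreated ones in 21 members at day 5 (1.74% of all tested genes) and in 22 at day 7 (0.98%), and below in 0 (0.767% and 0.136%). The day 7 count rests on few libraries: it was 1 without either treated KO library and 3 to 5 without replicate 3 of the treated control, replicate 2 or 3 of the untreated control, or any of the 3 untreated KO libraries. It was also 1 when the 4 groups of day 7 were fitted on their own, where 40 of all tested genes were called in place of 77. In RNA from whole tissue, more multiciliated cells and more transcript per cell cannot be told apart, nor can either be told from the loss of RNA of other cells.

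**Figure D1:**
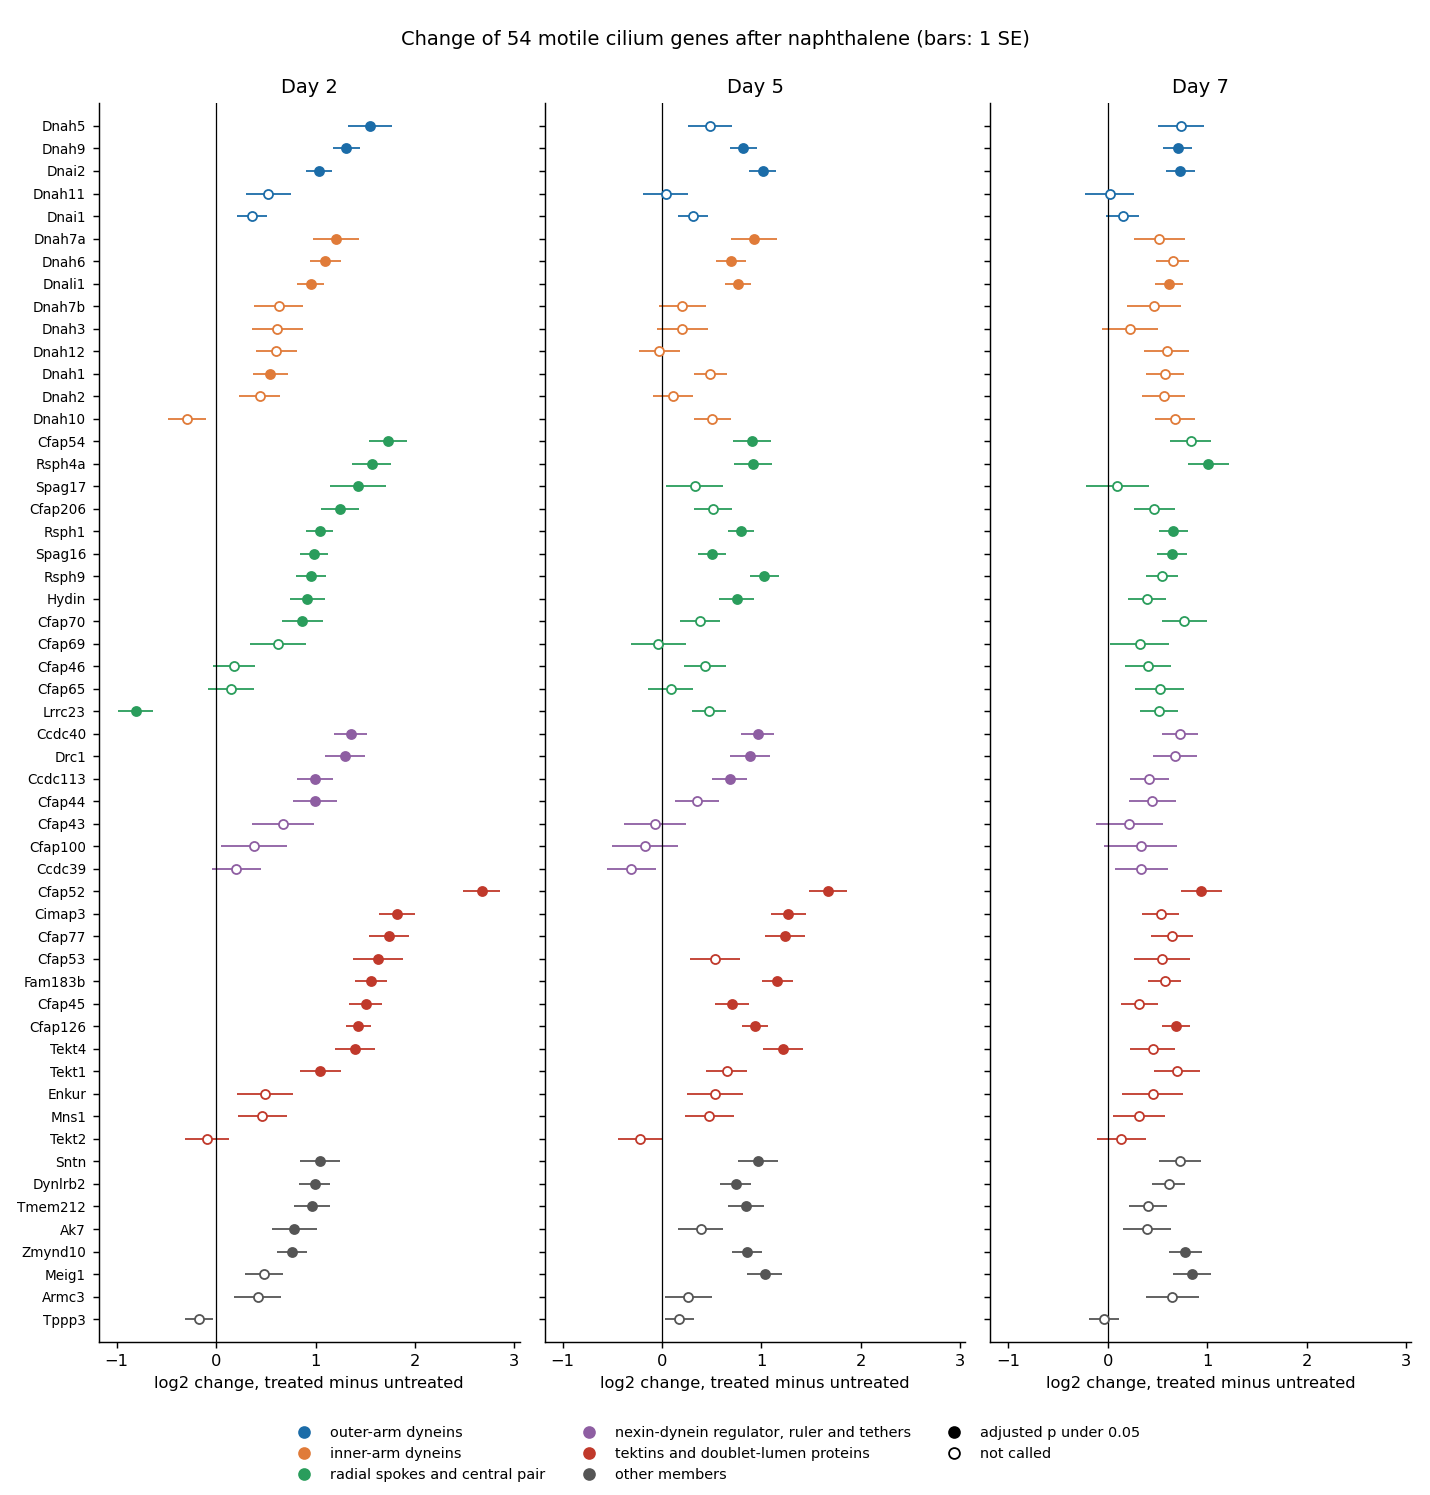
Log2 change of each of the 54 members, naphthalene minus untreated, averaged over control and KO libraries at days 2, 5 and 7, with bars of 1 SE; filled points have an adjusted p under 0.05 and colours give the structural class. Most points lie right of 0 on each day, 34, 26 and 10 filled points are higher, and Lrrc23 at day 2 is the 1 filled point left of 0.

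Of the 35 that rose on any of the 3 days, 9 rose on all of them (Dnah9, Dnai2, Dnali1, Rsph1, Rsph4a, Spag16, Cfap52, Cfap126 and Zmynd10), 16 at days 2 and 5 only, and 9 at day 2 only. Meig1 alone was called at days 5 and 7 and not at day 2. The remaining 19 members rose on no day by this test. The share of all tested genes called on the same combinations of days was not computed, so these counts are descriptions. Of all 54 members, 44 had an unadjusted p under 0.05 at day 2, 34 at day 5 and 35 at day 7, as had 23.1%, 26.4% and 5.23% of all tested genes.

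Outer-arm dyneins supply most of the force of the beat. At day 2, 3 of the 5 members of this class rose, with a class median of 1.03. Dnah9, a heavy chain of the distal outer arm, had 6.72, 8.03 and 10.5 CPM in the untreated control libraries and 17.2, 18.8 and 18.6 CPM in the treated ones. In KO libraries it had 6.73, 5.12 and 6.20 CPM untreated and 17.6, 13.7 and 19.9 CPM treated. The ranges did not overlap in either genotype, and the log2 change over both was 1.31 (SE 0.14, adjusted p = 4.92e-08). Dnai2, an intermediate chain of the outer arm, was among the most even members, at 6.13 to 9.02 CPM in the untreated libraries of day 2 and 12.8 to 16 CPM in the treated ones. It rose by 1.03 (SE 0.13) at day 2, 1.01 (SE 0.13) at day 5 and 0.73 (SE 0.14) at day 7, all called. Its partner Dnai1 did not pass the test, with 0.36 (SE 0.16) at day 2 and 0.15 (SE 0.16) at day 7. Dnah5, a heavy chain found along the whole axoneme, rose at day 2 (1.55, SE 0.22), and Dnah11, the heavy chain of the proximal part, had 0.53 (SE 0.22, adjusted p = 0.144) at day 2 and 0.02 (SE 0.25) at day 7.

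Inner-arm dyneins shape the bend of the cilium, and 4 of the 9 members rose at day 2, with a median of 0.62. Dnali1, a light intermediate chain of inner arms, had 7.38 to 10.8 CPM untreated and 13.9 to 21.2 CPM treated at day 2, with no overlap, and rose by 0.95 (SE 0.13, adjusted p = 6.82e-06). Dnah6 rose by 1.10 (SE 0.16) and Dnah7a by 1.2 (SE 0.23). Dnah7a and Dnah7b are near-identical copies whose reads the counting may have split, so the 1.2 of the one and the 0.63 (SE 0.24) of the other are uncertain. Dnah10, a heavy chain of an inner arm, had 10.2 to 20.3 CPM in untreated and 6.86 to 14.6 CPM in treated libraries of day 2, overlapping ranges. Its log2 change was -0.29 (SE 0.19, adjusted p = 0.381) at day 2 and 0.51 and 0.67 at days 5 and 7, none of them called.

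Radial spokes and the central pair carry the signals that switch dyneins on and off around the axoneme. In this class 9 of 13 members rose and 1 fell at day 2, with a median of 0.95. Cfap54, a central pair protein, had 3.12, 2.44 and 4.93 CPM in untreated control libraries and 10.5, 11.9 and 9.32 CPM in treated ones. Untreated KO libraries had 4.78, 3.03 and 2.48 CPM and treated ones 13.8, 7.46 and 16 CPM. Every treated library lay above every untreated one, and the log2 change was 1.73 (SE 0.19, adjusted p = 1.63e-07). The spoke head gene Rsph4a had 3.26 to 5.49 CPM untreated and 8.48 to 15.5 CPM treated at day 2, and 2.48 to 4.73 and 5.04 to 7.94 CPM at day 7, without overlap on either day. It rose by 1.56, 0.91 and 1.01 at days 2, 5 and 7, and Rsph1, another spoke head gene, by 1.04, 0.80 and 0.66. The day 7 call of Rsph4a was lost when some single libraries of day 7 were left out.

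Lrrc23, a radial spoke protein, went the other way at day 2. Untreated control libraries had 24.4, 15.1 and 40.0 CPM and treated ones 16.4, 17.2 and 11.6 CPM, so that these ranges overlapped. Untreated KO libraries had 21.4, 22.5 and 23.9 CPM and treated ones 14.4, 10.8 and 13.6 CPM, without overlap. Its log2 change over both genotypes was -0.81 (SE 0.18, adjusted p = 0.0024), and neither genotype passed alone (-0.81 in each, adjusted p = 0.0654 in control and 0.0858 in KO). At day 5 it had 47.7, 50.3 and 48.4 CPM in treated control and 50.3, 34.8 and 36.8 CPM in treated KO libraries, against 23.9 to 48.7 CPM in untreated ones. That change of 0.47 (SE 0.17, adjusted p = 0.0852) was not called, but the difference between the changes of day 5 and day 2 was (1.28, SE 0.25, adjusted p = 0.0109). Lrrc23 was thus the only member whose treated level at day 5 was called apart from that at day 2 relative to the untreated libraries of each day, where 0.67% of all tested genes were (0.451% higher and 0.218% lower). This count of 1 rose to 6 without replicate 2 of treated KO of day 2, to 7 without replicate 3 of untreated control of day 2, to 5 without replicate 1 of untreated KO of day 2, and to 2 without replicate 2 of treated KO or replicate 3 of untreated control of day 5. With untreated libraries of day 2 of letter k alone it was 14, 1 higher and 13 lower (6.65% of all tested genes were called, 2.76% higher and 3.89% lower). With untreated libraries of day 5 of letter o alone it was 0, with 1.2 for Lrrc23 (adjusted p = 0.0568).

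The nexin-dynein regulatory complex links neighbouring doublets, the proteins Ccdc39 and Ccdc40 form a ruler that sets the spacing of arms and spokes, and Cfap43 and Cfap44 tether dynein heads. At day 2, 4 of these 7 members rose, with a median of 0.99. Ccdc40 had 5.82 to 11.4 CPM in untreated and 13.2 to 21.8 CPM in treated libraries of day 2, without overlap, and rose by 1.35 (SE 0.17, adjusted p = 9.00e-07). Its partner in the ruler, Ccdc39, had 5.93 to 17.8 CPM untreated and 8.12 to 16 CPM treated, overlapping throughout, with 0.20 (SE 0.25) at day 2 and -0.31 (SE 0.25, adjusted p = 0.433) at day 5. Of the tether genes, Cfap44 rose by 0.99 (SE 0.22). Cfap43, at 7.45 to 29.1 CPM untreated and 17.1 to 34.6 CPM treated, had 0.67 (SE 0.31, adjusted p = 0.19). Without replicate 3 of the untreated control libraries of day 2 Cfap43 would also be called, at 1.09.

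Tektins and the proteins of the doublet lumen had the largest changes: 9 of 12 rose at day 2, with a median of 1.47. Cfap52, a protein of the inner doublet wall, led all members. Its untreated control libraries of day 2 had 3.65, 2.56 and 3.21 CPM and the treated ones 23.5, 20.1 and 21.6 CPM. In KO libraries 3.90, 3.36 and 3.43 CPM stood against 25.3, 14.0 and 23.5 CPM. The lowest treated library thus lay far above the highest untreated one, and the log2 change was 2.67 (SE 0.19, adjusted p = 2.47e-11), 2.78 in control and 2.56 in KO. At day 5 Cfap52 had 10.3, 9.46 and 9.70 CPM in treated control and 6.59, 19.5 and 17.8 CPM in treated KO libraries, and at day 7 the 5 treated libraries had 5.71 to 7.66 CPM. All these lay above the untreated libraries of their day, which held 2.84 to 4.73 CPM. The change fell from 2.67 through 1.67 to 0.94 (SE 0.21), and the difference between days 7 and 2 was called (-1.73, SE 0.28, adjusted p = 0.00133).

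Cimap3, a ciliary microtubule-associated protein, at 1.59 to 4.33 CPM untreated and 8.84 to 11.9 CPM treated at day 2, rose by 1.82 (SE 0.18, adjusted p = 1.57e-08). Cfap126, a ciliary protein also called Flattop, rose by 1.43 (SE 0.13, adjusted p = 2.91e-09) from 8.24 to 10.7 CPM untreated to 19.7 to 29.4 CPM treated. Fam183b, another protein inside the doublets, had 2.04 to 3.27 CPM untreated and 6.92 to 8.96 CPM treated at day 2. It rose by 1.56 at day 2 and 1.16 at day 5. These 3 genes and Cfap45 had, like Cfap52, a smaller change at day 7 than at day 2 by a test of the difference itself: -1.29 for Cimap3, -1.19 for Cfap45, -0.99 for Fam183b and -0.75 for Cfap126 (adjusted p = 0.00808, 0.0139, 0.0275 and 0.0453). Lrrc23 had a higher one (1.32, SE 0.26, adjusted p = 0.00674). These 5 lower and 1 higher members stand against 0.553% and 0.461% of all tested genes (1.01% in either direction). The call of Cfap126 was lost under most alternative settings and that of Fam183b under several, and both, with that of Cfap45, were lost with untreated libraries of day 2 of letter n alone. With letter k alone 11 members were lower and 1 higher (0.961% and 0.767% of all tested genes). No member differed between days 7 and 5 by edgeR's test, where 6 had an unadjusted p under 0.05 (11.1%, against 6.69% of all tested genes) and 0 of all tested genes were called. The fall of Cimap3 from day 2 to day 7 came with a rise of its untreated level, which was higher by 0.65 (SE 0.18) at day 7 than at day 2. Tekt1 and Tekt4 rose at day 2 (1.05 and 1.40) and Tekt2, at 3.72 to 11.6 CPM untreated and 4.75 to 7.58 CPM treated, did not pass (-0.09, SE 0.22). Cfap53 rose by 1.63 (SE 0.25), and Mns1 (0.46) and Enkur (0.49) did not pass.

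**Figure D2:**
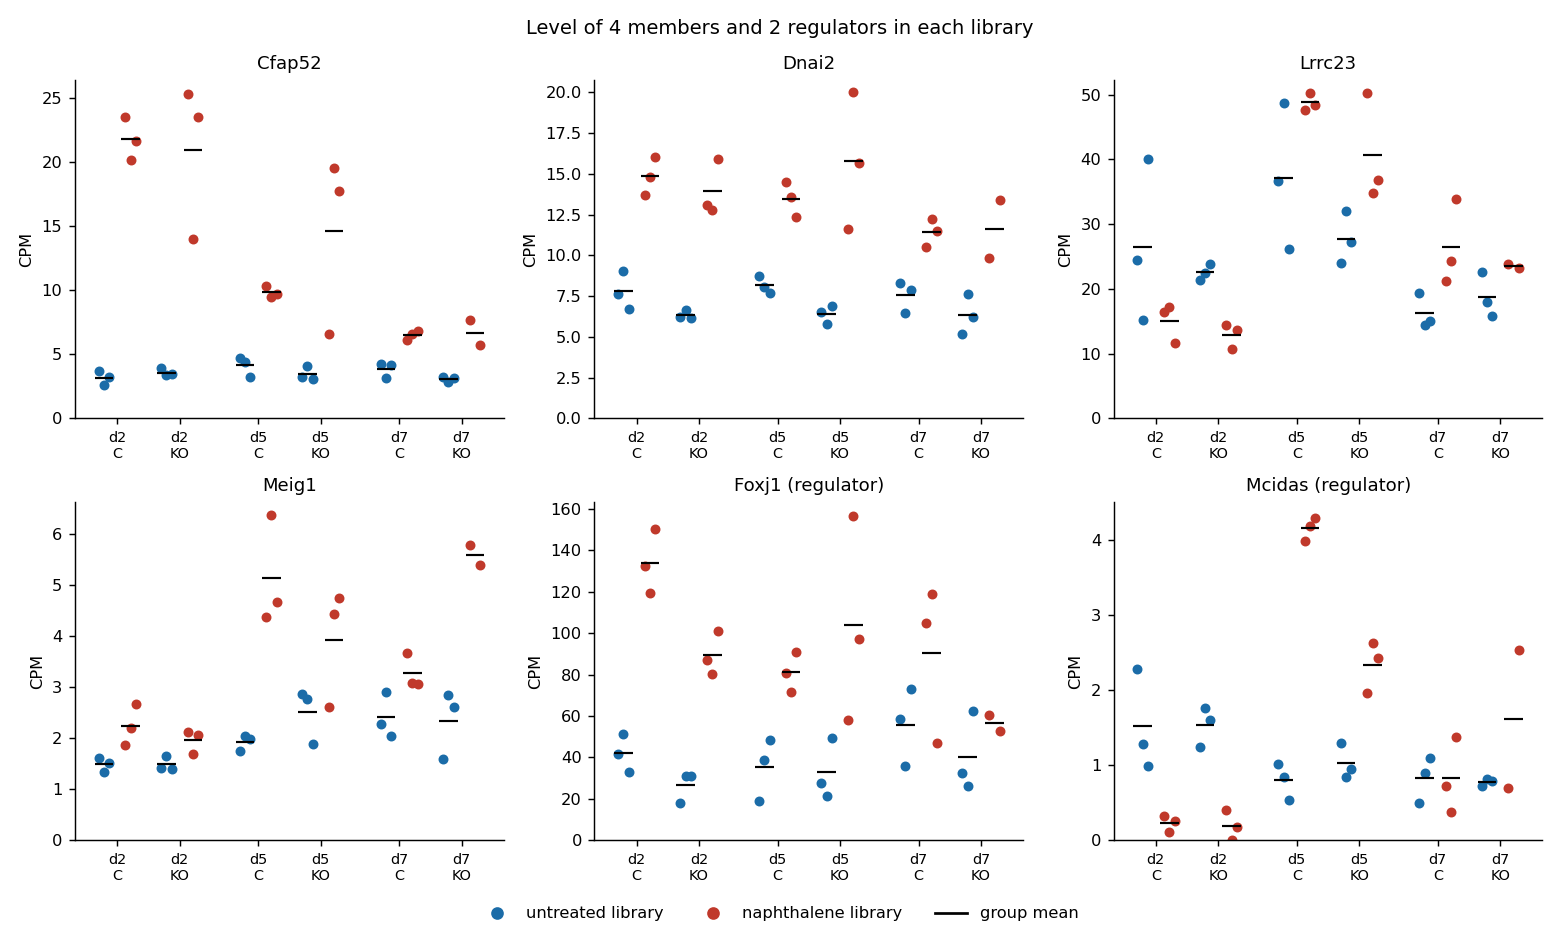
CPM of the members Cfap52, Dnai2, Lrrc23 and Meig1 and of the regulators Foxj1 and Mcidas in each library, by day and genotype (C, control), with group means as lines. Treated and untreated libraries of Cfap52 do not overlap in any group, Lrrc23 is lower in treated KO than in untreated KO libraries of day 2, and Mcidas is near 0 in treated libraries of day 2 and at 1.96 to 4.30 CPM in those of day 5.

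Of the other members, Dynlrb2, a dynein light chain used in transport along the cilium, had 10.8 to 23.8 CPM untreated and 21.1 to 36.2 CPM treated at day 2. The ranges met through 1 treated KO library, and the gene rose by 0.99 (SE 0.16, adjusted p = 3.64e-05). Sntn, a protein of the tip of airway cilia, and Tmem212 rose by 1.04 and 0.97, and Zmynd10, needed for the assembly of dynein arms in the cytoplasm, by 0.76, 0.85 and 0.78 at days 2, 5 and 7. Meig1 had 1.34 to 1.65 CPM in untreated and 1.68 to 2.66 CPM in treated libraries of day 2 (0.49, SE 0.19, not called). At day 5 it had 4.36, 6.37 and 4.66 CPM in treated control and 2.61, 4.43 and 4.73 CPM in treated KO libraries, against 1.75 to 2.86 CPM untreated. It rose by 1.03 (SE 0.18, adjusted p = 0.000426) at day 5 and by 0.85 (SE 0.19) at day 7, and the difference between its changes at days 5 and 2 was not called (0.55, SE 0.26, adjusted p = 0.368).

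Tppp3, a tubulin-binding protein often used as a marker of mature ciliated cells, was the most abundant member and did not follow the rest. Per kilobase of its longest coding transcript it had 279 CPM in untreated libraries, ahead of Dynlrb2 with 34.5, Lrrc23 with 16.9, Tmem212 with 16.9 and Cfap126 with 9.46. At day 2 it had 342, 384 and 343 CPM in untreated and 393, 346 and 342 CPM in treated control libraries. In KO libraries 312, 351 and 380 CPM stood against 225, 322 and 266 CPM, and the ranges overlapped in both genotypes. Its log2 change over both was -0.17 (SE 0.15, adjusted p = 0.532) at day 2, 0.17 (SE 0.15) at day 5 and -0.04 (SE 0.15) at day 7. The sign of the day 7 value turned when any of 4 single libraries was left out. Over all 35 libraries it lay between 225 and 607 CPM.

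The other 53 members summed to 271 to 543 CPM in the 6 untreated libraries of day 2 (mean 376 ± 99.7, SD) and to 489 to 746 CPM in the 6 treated ones (665 ± 108), a ratio of means of 1.77. Only the untreated control library with 543 CPM exceeded the lowest treated value of 489. At day 5 the means were 476 ± 95.5 and 667 ± 51.8 CPM, a ratio of 1.40, with 1 untreated library at 660 CPM among the treated ones. At day 7 they were 349 ± 33.5 CPM (n = 6) and 506 ± 31.1 CPM (n = 5), a ratio of 1.45, and every treated library (482 to 552 CPM) lay above every untreated one (311 to 385 CPM). The share of Tppp3 in all member counts was 49.0 ± 7.5% in untreated and 32.4 ± 6.51% in treated libraries of day 2, and 56.2 ± 5.74% and 47.1 ± 6.35% at day 7. Across 35 libraries the log2 CPM of Tppp3 and the mean of the other 53 had a correlation of -0.32, and within the 18 untreated libraries of -0.48. These points share the library scaling and the groups, so the values are descriptions.

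**Figure D3:**
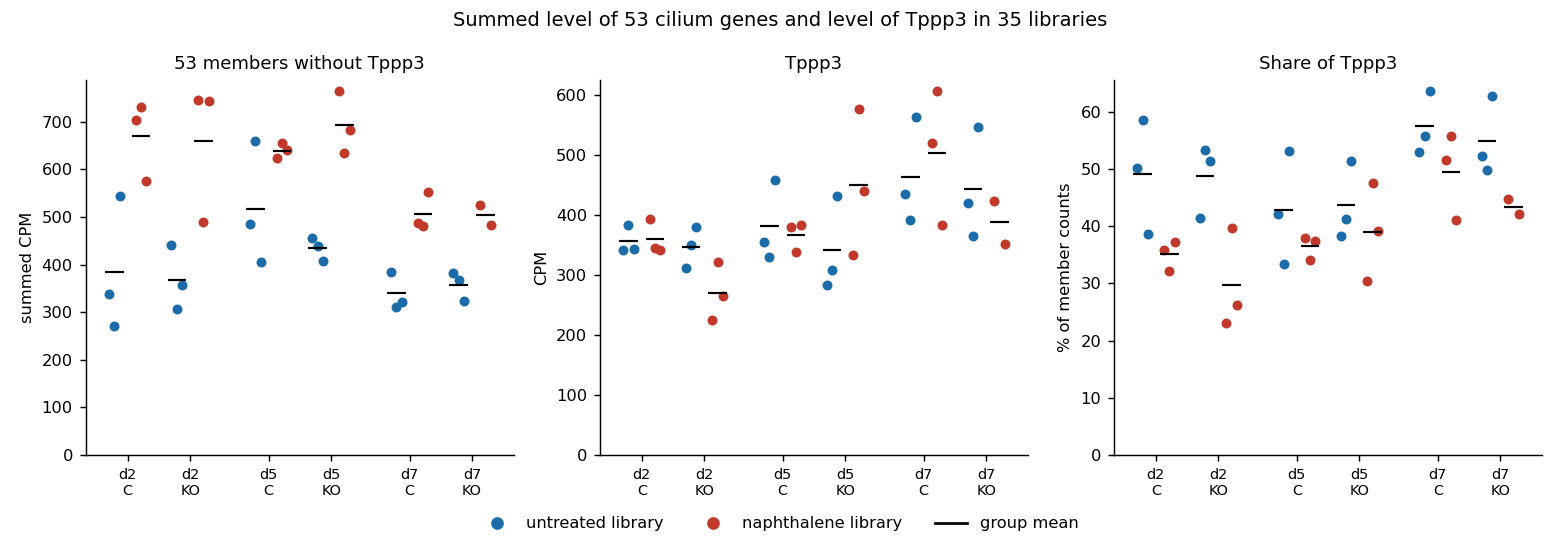
Summed CPM of the 53 members other than Tppp3, CPM of Tppp3, and the share of Tppp3 in all member counts, as a percentage, in each of 35 libraries with group means as lines. The sum of the 53 is higher in treated libraries, at 482 to 552 against 311 to 385 CPM at day 7, while Tppp3 stays between 225 and 607 CPM with overlapping groups of treated and untreated libraries.

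Tppp3 apart, abundance did not order the changes. Across the 54 members the untreated level per kilobase and the log2 change at day 2 had a Pearson correlation of -0.22 and a Spearman correlation of -0.11, and without Tppp3 the Pearson value was -0.11. These are values across genes of the same libraries. Of the 5 members with the highest level per kilobase, Dynlrb2, Tmem212 and Cfap126 rose, Lrrc23 fell and Tppp3 did not pass. Cfap65, a central pair protein with the second highest mean CPM, had 16.2 to 51.3 CPM untreated and 22.3 to 41.8 CPM treated at day 2 and did not pass on any day (0.15, 0.09 and 0.52). In GENCODE's annotation of GRCm38, 20 members share some exon bases with another gene and 34 share none. Of the 34 without such overlap 25 rose at day 2, with a median log2 change of 1.02, and of the 20 with some 9 rose, with a median of 0.58. Strand-specific counting is not given in the sources used here, so reads cannot be assigned between the 6 members that share over 10% of their exon bases (Dnah3, Spag17, Ccdc39, Tekt2, Mns1 and Zmynd10) and their neighbours. Of these 6, 2 rose at day 2, with a median of 0.54, against 32 of the other 48, with a median of 0.99, and the part of the overlap in this was not tested.

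**Figure D4:**
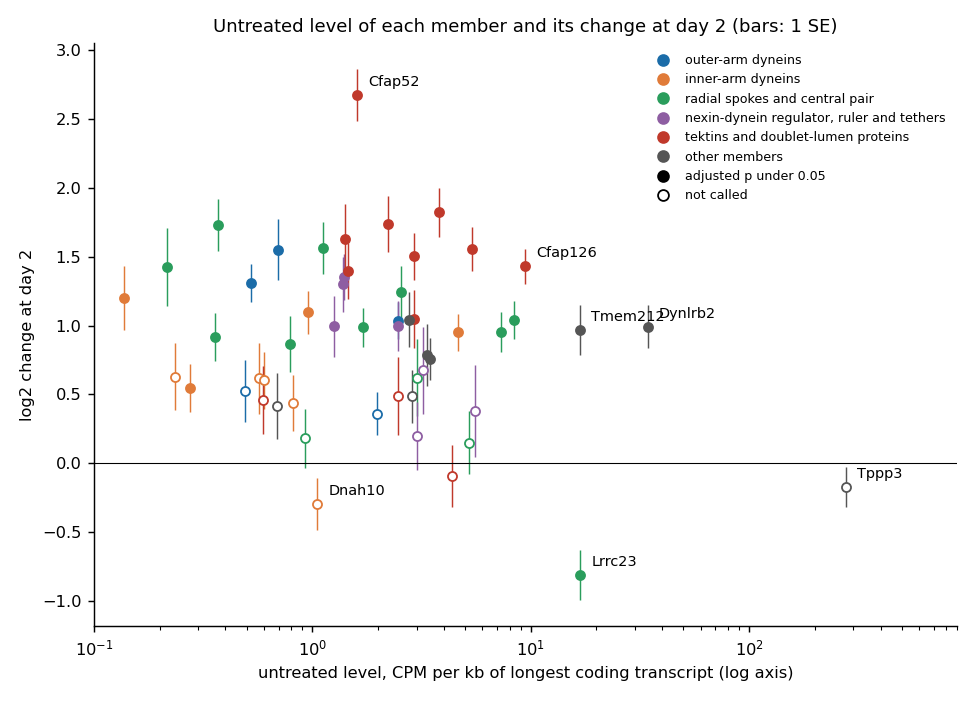
Untreated level of each member, as CPM per kilobase of its longest coding transcript on a log axis, against its log2 change at day 2 averaged over both genotypes, with bars of 1 SE; filled points have an adjusted p under 0.05. Tppp3 lies far to the right at 279 CPM per kilobase with a change of -0.17, and Cfap52 at the top with 2.67 has a level in the middle of the members.

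Members also differed in how far libraries of the same group varied. The SD of log2 CPM within groups (0.5 CPM added) was largest for Cfap100 (0.63), Cfap43 (0.59) and Cfap69 (0.51) and smallest for Dnai2 (0.19), Spag16 (0.20) and Cfap126 (0.20). Among the 3 untreated control libraries of day 2, Cfap100 ran from 3.02 to 24.2 CPM and Cfap43 from 7.45 to 29.1 CPM, where Cfap126 ran from 9.25 to 10.7 CPM. The variable members moved together: deviations of Cfap43 from its group means correlated at 0.94 with those of Cfap69 and at 0.91 with those of Cfap100 over 35 libraries. With the deviations of Cfap52 the value was -0.05, with Dnai2 -0.51 and with Tppp3 -0.68. These pairs were picked after their values were seen. In replicate 3 of the untreated control libraries of day 2, 49 of the 54 members lay above their group mean, by 0.43 on average, and in replicate 2 of the treated KO libraries of day 2 only 1 did, with a mean of -0.35. Leaving the first of these out raised the median member change at day 2 in control mice from 0.92 to 1.23. The share of all tested genes above their group mean in these libraries was not computed.

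The spread among untreated libraries of day 2 went with the letters in their names. The 53 members other than Tppp3 summed to 271 to 358 CPM in the 4 libraries of letter k and to 440 and 543 CPM in those of letter n. Cfap43 had 7.45 to 12.4 CPM in the libraries of letter k and 26 and 29.1 CPM in those of n, Ccdc39 had 5.93 to 9.2 against 17.3 and 17.8 CPM, and Cfap69 had 6.57 to 9.56 against 21.8 and 23.1 CPM. Cfap52 (2.56 to 3.65 against 3.21 and 3.9 CPM) and Dnai2 (6.13 to 9.02 against 6.2 and 6.69 CPM) overlapped between the letters. In a comparison chosen after the values were seen, the untreated libraries of day 2 were restricted to 1 letter. With letter k alone 45 members rose at day 2 and 1 fell, with a median of 1.13 (12% of all tested genes changed, 6.9% higher and 5.08% lower). With letter n alone, which leaves 1 untreated library in each genotype and assumes that it varies like the other groups, 21 rose and 1 fell, with a median of 0.71 (6.09% changed, 3.3% higher and 2.79% lower). Cfap43 was called with letter k alone (1.36, adjusted p = 0.0035) and had -0.12 (adjusted p = 0.876) with n alone. Lrrc23 was called lower with either (-0.60 and -1.07). At day 5, 20 members rose with untreated letter f alone and 24 with letter o alone, with medians of 0.54 and 0.69 (1.73% and 7.86% of all tested genes rose). The part of the letters in the changes after naphthalene was not tested, since no letter of days 2 and 5 holds both treated and untreated libraries.

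Genotype made no difference that the tests could call. At day 2, 29 members rose in control and 27 in KO mice (of all tested genes 2.57% rose and 1.18% fell in control, 3.76% in all, and 1.99% rose and 0.747% fell in KO, 2.74% in all). Of these, 25 rose in both, and 50 members were above 0 in both genotypes. The share of all tested genes called in both genotypes was not computed for day 2 or day 5. At day 5, 12 rose in control and 18 in KO mice (1.1% of all tested genes rose and 1.29% fell in control, 2.39% in all, and 1.14% rose and 0.18% fell in KO, 1.32% in all), 9 of them in both. With only the compared groups of each genotype fitted, these counts were 0 and 1, and calls over all tested genes fell from 492 to 29 and from 272 to 32. The day 5 control count depends on single libraries, and fell to 1 without untreated replicate 1. This library is high in P2ry12 and is also the untreated control library of letter o. With untreated letter f alone, which leaves it out, the control count was also 1. Calls over all tested genes fell there from 492 to 24, so the drop was not particular to the members. The control count fell to 2, 3 and 5 without treated replicates 2, 1 and 3, and to 6 without untreated replicate 2. In KO mice the day 5 count fell to 7 and 9 without treated replicates 2 and 3 and to 10 without untreated replicate 2. Calls over all tested genes are not given for these single left-out libraries. With untreated libraries of day 2 of letter n alone the day 2 counts were 7 higher and 1 lower in control and 5 higher in KO mice (1.5% and 0.466% of all tested genes changed). The day 2 KO count fell to 15 without untreated replicate 2. It was also 15 with only the compared KO groups of day 2 fitted, where calls over all tested genes fell from 565 to 264. At day 7 no member was called in either genotype alone by edgeR (0.0291% of all tested genes rose and 0.00971% fell in control, 0.0388% in all, and 0.0631% rose and 0.00971% fell in KO, 0.0728% in all). An unadjusted p under 0.05 was found for 27 members in control and 23 in KO mice, against 2.86% and 6.24% of all tested genes. DESeq2 called 2 members in each genotype, with 15 and 31 of all tested genes.

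The difference of the naphthalene change between genotypes was called for 0 members on any day by edgeR, and for 0 of all tested genes, with a smallest adjusted p among members of 0.544 at day 5. At an unadjusted p under 0.05 there were 0, 5 and 5 members on the 3 days (0%, 9.26% and 9.26%), against 1.8%, 9.07% and 4.28% of all tested genes. The precision is limited: the median SE of this difference was 0.39 at days 2 and 5 and 0.42 at day 7 on the log2 scale. At day 2 the differences, KO minus control, ran from -0.53 for Tmem212 to 0.58 for Cimap3. At day 5 the extremes were -0.76 for Meig1 and 1.04 for Cfap69, and Cfap52 had 0.83 (SE 0.38, adjusted p = 0.544), with 1.25 in control and 2.09 in KO mice. At day 7 they were -1.06 for Cfap46 and 1.39 for Armc3. Across the 54 members the changes in control and in KO mice, which share no library, correlated at 0.92 at day 2, 0.71 at day 5 and -0.02 at day 7, where both sets of changes were nearly all above 0 but in another order. KO and control mice without naphthalene also differed in 0 members, averaged over the days, with 2 at an unadjusted p under 0.05 (3.7%, against 8.54% of all tested genes). Treated ones also differed in 0, with 1 at that level (1.85% against 5.03%).

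**Figure D5:**
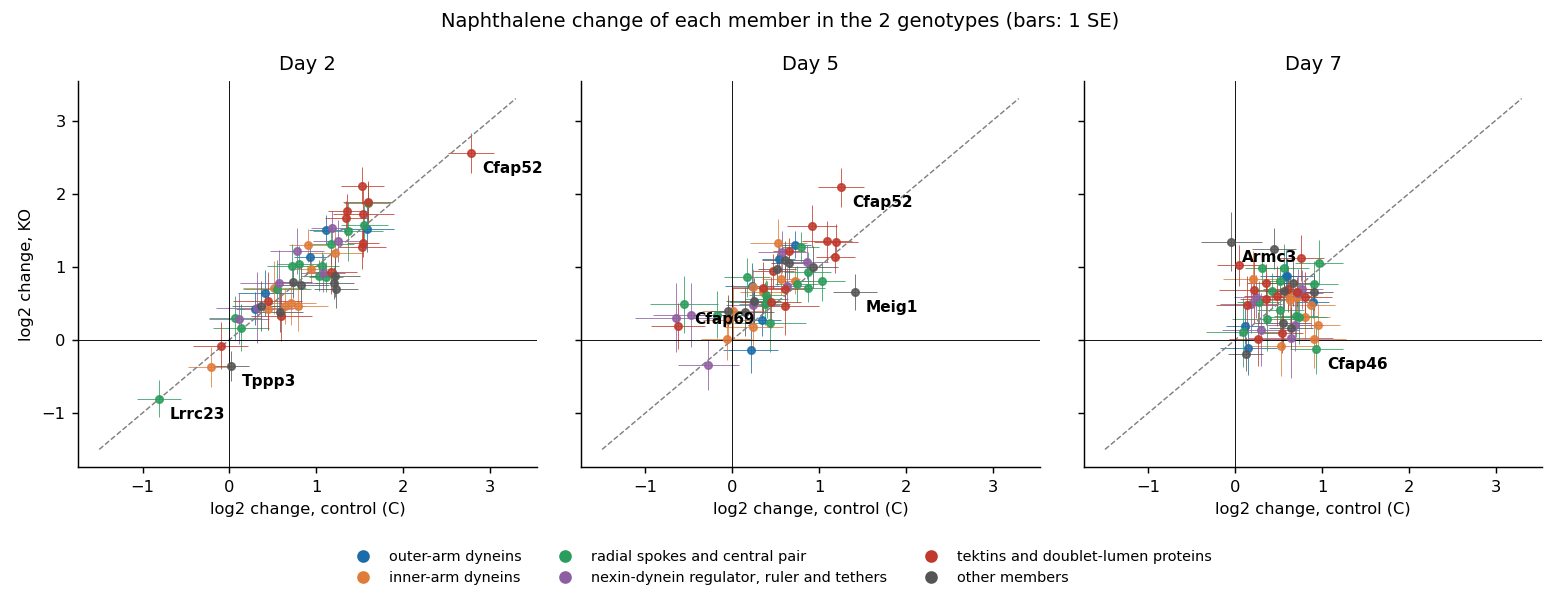
Log2 change after naphthalene of each member in control mice (horizontal axis) and in KO mice (vertical axis) at days 2, 5 and 7, with bars of 1 SE, a dashed line of equal change and colours for the structural class. Points follow the line at day 2 and scatter above 0 without following it at day 7, where the correlation is -0.02.

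Untreated libraries of days 7 and 2 differed in 8 members, while 13.8% of all tested genes differed (6.06% higher and 7.7% lower), so the share of members was near the background. Cfap77 (0.78), Dnah5 (0.72), Meig1 (0.67), Cimap3 (0.65), Tmem212 (0.57) and Spag16 (0.51) were higher at day 7, and Cfap65 (-0.73) and Tekt2 (-0.69) lower. The comparisons of days 2 and 7 use these untreated libraries, so their differences enter each change between days. The 8 calls were 1 with the untreated groups of these days fitted on their own, and 2 without replicate 3 of untreated KO of day 7, 3 without replicate 1 of untreated control of day 7, 4 without replicate 1 of untreated KO of day 2, and 5 without any of 4 other libraries (replicate 1 of control and replicate 2 of KO of day 2, and replicate 2 of control and of KO of day 7). Cfap65 and Tekt2 lost their calls when replicate 3 of the untreated control libraries of day 2 was left out, at -0.47 and -0.45. With untreated libraries of day 2 of letter k alone 3 members were higher and 0 lower (5.14% and 4.71% of all tested genes), and with letter n alone 2 were higher and 16 lower (8.31% and 9.33%).

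The regulators did not all move with the structural genes. Foxj1 had 32.8 to 51.3 CPM in untreated and 119 to 150 CPM in treated control libraries of day 2, and 18 to 31 and 80.2 to 101 CPM in KO libraries, without overlap. It rose by 1.71 (SE 0.26, adjusted p = 3.33e-05) at day 2 and by 1.43 at day 5, and had 0.59 (SE 0.28, adjusted p = 0.882) at day 7. Mcidas fell at day 2 by 2.86 on the log2 scale (SE 0.44, adjusted p = 6.70e-06), from 0.985 to 2.29 CPM untreated to 0 to 0.398 CPM treated, where single libraries held 0 to 6 reads. At day 5 it rose by 1.79 (SE 0.32), with 3.98 to 4.30 CPM in treated control and 1.96 to 2.64 CPM in treated KO libraries against 0.533 to 1.30 CPM untreated. Gmnc fell by 2.56 at day 2 (SE 0.42), where single treated libraries held 1 to 8 reads, and was at -0.35 (SE 0.33, adjusted p = 0.508) at day 5. Ccno, a regulator of centriole amplification, fell by 0.74 at day 2 and rose by 1.27 at day 5, and Myb fell by 0.64 at day 2. Across the 35 libraries Foxj1 correlated with the mean of the members at 0.59, Gmnc at -0.61, Mcidas at -0.10 and Scgb1a1 at -0.81. These values follow the same groups and scaling and carry no test.

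Further lists of cilium and cell type genes were counted in the same way. Of all tested genes 5.6% were higher and 4.3% lower at day 2, 4.34% and 2.82% at day 5, and 0.335% and 0.0388% at day 7. Of 52 tested genes on a list of further motile axoneme genes 31 rose and 0 fell at day 2, with a median of 0.87, led by Drc7 of the nexin-dynein regulatory complex (1.70, SE 0.18, adjusted p = 8.68e-08). At day 5, 24 rose and at day 7, 2. Dynein arm assembly and docking genes had 9 of 18 higher at day 2 (median 0.81), 8 at day 5 and 0 at day 7, with Cfap300 at 0.99 (SE 0.18) at day 2. Intraflagellar transport, which also builds the immotile cilia of other cells, had 5 of 29 higher at days 2 and 5, with medians of 0.17 and 0.14, and the smallest p at day 2 for Traf3ip1 (0.73, SE 0.11). The regulator list had 3 higher and 6 lower of 15 at day 2, and 7 higher and 0 lower at day 5. These lists and the members were chosen with earlier results of these data known, so their counts are no independent evidence of the direction. Of 8 tested ciliated cell markers outside the members 6 rose at day 2, 7 at day 5 and 3 at day 7, and the mean of this list correlated with that of the members at 0.91. Of 8 club cell markers 5 fell at day 2. Basal cell, macrophage and neutrophil lists had 4 of 6, 3 of 5 and 3 of 5 higher at day 2. Summed CPM of other lists moved at day 2 too, without overlap of treated and untreated libraries. Neuroendocrine (17.3 to 31.7 against 8.32 to 14.5 CPM) and adipocyte sums (26.2 to 34.5 against 14.6 to 21.8) were higher in treated libraries. Red blood cell (1495 to 2797 against 2891 to 4415) and B cell sums (89.1 to 183 against 208 to 298) were lower. The part of these other cells in the members' changes was not tested.

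Genes outside the list were ranked by how closely their log2 CPM followed the mean of the members over the 35 libraries. The closest were Cdhr3 (r = 0.95), Drc3 (0.94), Zfp474 (0.93), Fank1 (0.92), Mak (0.92), Kif9 (0.92), Erich2 (0.91), Ccdc181 (0.91), Ccdc162 (0.91) and Nme5 (0.91). Their changes at day 2 lay between 0.79 for Ccdc162 and 1.60 for Zfp474. The ranking used the same libraries, so a change at day 2 in the members' direction was built into the choice of these genes. Among members, Dnah6 (0.95), Ccdc113 (0.95) and Cfap206 (0.94) followed the mean of the others most closely. Tppp3 (-0.32), Lrrc23 (0.24), Meig1 (0.41), Ccdc39 (0.42), Tekt2 (0.43) and Dnah10 (0.45) followed it least.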

How the data were processed

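Whole-lung RNA was extracted with Trizol from a portion of homogenate and made into libraries with a Watchmaker mRNA kit, per the labels' protocols. The authors deposited raw read counts per gene for 35 libraries. The submitters' processing notes name GRCm39 and DESeq2 without a role, and which aligner, counter and strand setting produced the table is not given in the sources used here. Column names were matched to sample titles. Genes with low counts were removed (edgeR filterByExpr), counts were scaled by TMM, and 12 group means were fitted in 1 quasi-likelihood model over all libraries (edgeR 4.0.16, limma 3.58.1, R 4.3.3). All p-values are two-sided and adjusted over 20606 genes by Benjamini-Hochberg, with 0.05 as the threshold for a call. CPM values use the scaled library totals, and log2 CPM in correlations a prior count of 2. The method was tested on simulated data for the day 2 comparison over 20606 genes, where 78% of 2-fold and 99% of 4-fold changes were called, with 14 false among 191 calls. The changed genes there came only from those above a minimum mean count. Each gene was simulated on its own, without shared deviations of libraries or letters, so these rates need not hold for the data themselves. The members and lists were chosen with earlier results of these data known. Genes named with values were the 3 members with the smallest p in each direction, the 5 most abundant, the smallest p of each class and list, all called members elsewhere, and Tppp3. Others, such as Cfap100 and Meig1 beside their ranges, were picked after their values were seen. Alternatives were no filter, RLE scaling in place of TMM, the replicate number as a block, the compared groups alone and DESeq2 1.42.0. Each library was also left out in turn. Untreated or treated libraries of 1 letter were used too, a choice made after the values were seen. No pair of libraries of the same group agreed within sampling noise.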

Additional observations from a re-analysis of the deposited data

Results flagged for a closer look

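These results differed between days: the change after naphthalene relative to the untreated libraries of the same day was compared between days in the edgeR model, and the difference itself passed the adjusted p of 0.05. Lrrc23 had a change higher by 1.28 on the log2 scale at day 5 than at day 2 (SE 0.25, adjusted p = 0.0109), with treated libraries at 10.8 to 17.2 CPM at day 2 and 34.8 to 50.3 CPM at day 5. Its change was also higher at day 7 than at day 2, by 1.32 (adjusted p = 0.00674). The changes of 5 other members were lower at day 7 than at day 2: Cfap52 by -1.73 (adjusted p = 0.00133), Cimap3 by -1.29 (adjusted p = 0.00808), Cfap45 by -1.19 (adjusted p = 0.0139), Fam183b by -0.99 (adjusted p = 0.0275) and Cfap126 by -0.75 (adjusted p = 0.0453). With 1 library left out in turn, the call of Cfap126 was lost in 19 of 23 fits, that of Fam183b in 5 and that of Cfap45 in 1. The days differ in their untreated libraries and in the letters of the library names too, and the part of either was not tested.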

How the results depend on the processing

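Counts of members called moved by over 1.5 times as follows. With no filter on low counts the day 5 minus day 2 comparison called 6 members in place of 1, with 695 genes in place of 138. DESeq2 called 4 there (391 of all tested genes), and 2 at day 7 in each genotype in place of 0 (15 and 31 of all tested genes). With the compared groups fitted alone, so with fewer libraries to estimate the spread, the counts were 1 at day 7 over both genotypes, 15 at day 2 in KO, 0 and 1 at day 5 in control and KO, and 1 between untreated days 7 and 2. Calls over all tested genes fell there too, from 77 to 40, 565 to 264, 492 to 29, 272 to 32 and 2835 to 1414. With no filter, all tested genes called in the genotype difference at day 5 were 168 in place of 0, with 0 members.

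Replicate numbers did not pair the libraries: same-numbered deviations correlated at -0.30 to 0.16, with 3 of 17 pairs over 0.1. The replicate block moved the day 5 control count from 12 to 7 and that of all tested genes from 492 to 364.

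Leaving out 1 library gave 33 to 41 members called at day 2, 25 to 29 at day 5 and 1 to 8 at day 7 over both genotypes. In control mice the ranges were 21 to 32 at day 2 and 1 to 13 at day 5, and in KO mice 15 to 29 and 7 to 22. Between days they were 1 to 7 (5 minus 2), 4 to 8 (7 minus 2) and 2 to 10 (untreated 7 minus 2). Values near 0 turned sign: Cfap65 ran from -0.0014 to 0.44 at day 2 and from -0.10 to 0.25 at day 5, Cfap43 from -0.42 to 0.11 and Tekt2 from -0.35 to 0.023 at day 5. Tppp3 ran from -0.051 to 0.081 at day 2, from -0.13 to 0.12 at day 5 and from -0.041 to 0.29 at day 7 in control, and from -0.11 to 0.048 at day 7 over both genotypes. The cause was not tested. The calls of Cfap52, Cimap3, Cfap126 and Lrrc23 at day 2 held under each of these.

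Restricting a group to libraries of 1 letter, chosen after the values were seen, moved these counts. Untreated letter k alone at day 2 gave 14 members (5 minus 2), 12 (7 minus 2) and 3 (untreated 7 minus 2). Letter n alone gave 22 at day 2, 8 in control and 5 in KO, and 18 (untreated 7 minus 2), with Cfap65 at -0.39 and Cfap43 at -0.12. At day 5, untreated letter f alone gave 1 in control and 10 in KO, with Cfap100 at 0.0014 and Cfap43 at 0.065. Calls over all tested genes were 24 and 114 there, in place of 492 and 272. Letter o alone gave 1 in KO and 0 (5 minus 2), with Tppp3 at 0.070 in control. Treated letter b alone gave 7 in KO and 2 (5 minus 2), with 68 and 92 of all tested genes and with Cfap43 at 0.11. These settings leave fewer libraries, and some groups 1, assumed to vary like the other groups.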

Other observations

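The genes closest to 4 single members (Tppp3, Lrrc23, Dnah10 and Cfap65) were sought in a comparison added after the values were seen. Tppp3 correlated over the 35 libraries at 0.69 with the mean of the red blood cell list, at 0.68 with the club cell list, at 0.64 with the alveolar type 1 list, at 0.55 with the goblet cell and adipocyte lists and at -0.08 with the ciliated cell list outside the members, and its closest genes were Mettl26 (r = 0.88), Rnaseh2c (0.88) and Pdgfb (0.88). Lrrc23 was closest to Mgme1 (0.87) and Ccna1 (0.85), followed by Cfap74 (0.80), a central pair protein, and Dnah10 was closest to Ttc16 (0.83). The deviations of Lrrc23 and Dnah10 from their group means correlated at 0.73. Cfap65 was closest to Ttll6 (0.91). These values share libraries and scaling and carry no test.

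Mcidas, Ccno and Gmnc had changes at day 5 that were called higher than at day 2, by 4.64 (adjusted p = 2.11e-06), 2.01 (adjusted p = 0.000103) and 2.21 (adjusted p = 0.0302) on the log2 scale in edgeR. Treated libraries of day 2 held 0 to 6 reads of Mcidas and 1 to 8 reads of Gmnc each, so the sizes of the differences of these genes are imprecise.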
